A study of Mus musculus with 8 samples.

Results

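The genes of the tumor necrosis factor (TNF) superfamily were followed through RNA-seq of mouse blood stem cells and their precursors. The members were the genes whose symbol follows the Tnfsf or Tnfrsf naming pattern, together with Tnf, Lta, Ltb, Fas, Fasl, Cd40, Cd40lg, Cd70 and Ltbr. The rule found 39 of the 33504 genes in the table, 16 ligands and 23 receptors. RNA abundance was measured in 2 libraries of fetal liver hematopoietic stem cells (FL-HSC, embryonic day 14.5), 3 libraries labelled ex-HSC with the stage in vitro, and 3 libraries of pre-HSC from embryonic day 11.5. The protocols describe aggregates of sorted cells and OP9 stroma, a line from mouse bone marrow, kept for 4 days with SCF, IL-3 and Flt3L at 100 ng/ml each, and ex-HSC were read as the product of that culture. All libraries carry the label C57BL/6J. The conceptuses came from wild-type females mated with wild-type or Ly6a-GFP transgenic males, and the labels do not say which libraries carried the transgene, how the cells were gated, or whether embryos were pooled. Nothing in the labels says that replicates came from separate litters or cultures, so the p-values speak of variation among these libraries, which may be technical.

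Superfamily ligands are mostly trimers anchored in the membrane of one cell that bind receptors with cysteine-rich domains on another. Some receptors, such as those of Tnfrsf1a and Fas, carry a death domain that can lead to caspase activation, and others recruit TRAF adaptors, which switch on the transcription factor NF-kappaB. In zebrafish embryos, Tnf signalling takes part in the emergence of blood stem cells from the aortic endothelium. In adult blood the family is best known for costimulation of lymphocytes, for B cell survival and for the building of lymphoid organs.

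A smaller share of the ligands than of the receptors was expressed. Of the 16 ligands, 4 had a mean of 1 FPKM (fragments mapped to a gene, scaled by its length and by the size of the library) or more in FL-HSC and 7 in ex-HSC, against 4 in pre-HSC. Of the 23 receptors, 12 reached that level in FL-HSC and 16 in ex-HSC, against 15 in pre-HSC. Among all 33504 genes, 11682 to 12757 stood at 1 FPKM or more in a single library. The summed FPKM of the 16 ligands was 125 to 136 in FL-HSC libraries and 128 to 215 in ex-HSC libraries, against 16.3 to 37.7 in pre-HSC libraries. For the 23 receptors the sums overlapped, at 264 to 273 in FL-HSC and 187 to 297 in ex-HSC, against 240.4 to 276 in pre-HSC. By group mean, the leading ligand was Ltb in FL-HSC and ex-HSC, and Tnf in pre-HSC, where Ltb exceeded Tnf in replicate 2. The receptor with the highest mean was Tnfrsf14 in FL-HSC at 85.7 ± 0.367 FPKM (SD, n = 2), Tnfrsf9 in ex-HSC at 24.01 to 88.1 FPKM over the 3 libraries and below Tnfrsf13b, Tnfrsf1a and Tnfrsf1b in replicate 3, and Tnfrsf1a in pre-HSC at 79.9 ± 5.68 FPKM (SD, n = 3).

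**Figure D1:**
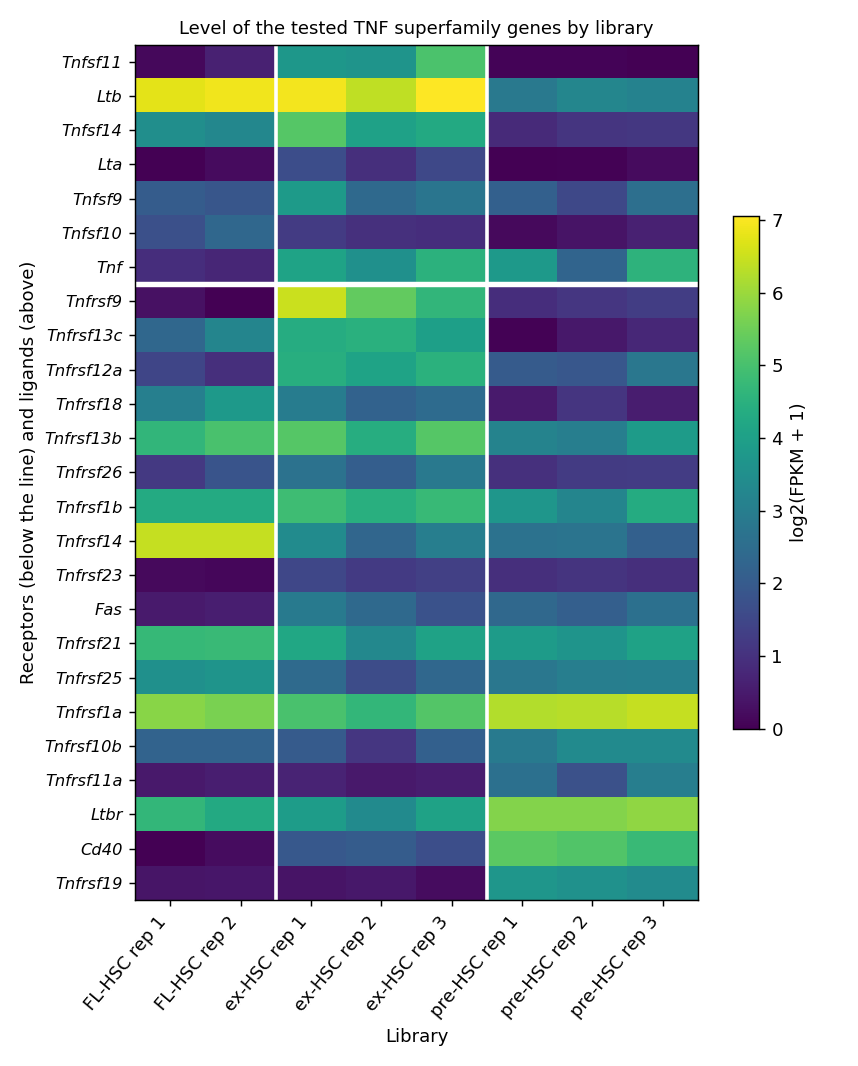
Each row is 1 of the 25 tested superfamily genes and each column 1 library, with colour giving log2(FPKM + 1). Ligands stand above the horizontal line and receptors below it, each in the order of their difference between ex-HSC and pre-HSC. Ltb is bright in FL-HSC and ex-HSC, Tnfrsf14 in FL-HSC, Tnfrsf9 in ex-HSC, and Tnfrsf1a, Ltbr and Cd40 are brightest in pre-HSC.

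All 14 listed stem and progenitor genes, among them Kit, Runx1 and Gata2, averaged 1 FPKM or more in each population. Summed FPKM of 10 endothelial markers was 355 to 414 in FL-HSC and 155 to 311 in ex-HSC, against 2789 to 3139 in pre-HSC, and 9, 9 and 10 of the markers averaged 1 FPKM in those populations. That of 9 stromal markers was 7.84 to 13.3 in FL-HSC and 13.4 to 27.7 in ex-HSC, against 311 to 598 in pre-HSC, with 3, 7 and 9 markers at that level and Dcn and Lum listed at 0 in FL-HSC. Pdgfrb alone among them had its highest mean in ex-HSC, at 5.76 FPKM against 3.72 in pre-HSC, with overlap. The part of OP9 stroma in the ex-HSC values was not tested. Mast cell and basophil markers, 9 in all, summed to 6.90 to 7.22 FPKM in FL-HSC and 1712 to 3483 in ex-HSC, against 0.487 to 6.43 in pre-HSC. In FL-HSC 3 of them averaged 1 FPKM and in ex-HSC 9, against 1 in pre-HSC. Of these genes, Tpsab1 and Fcer1a were listed at 0 in both FL-HSC libraries. Mcpt4, Mcpt8, Tpsb2, Tpsab1, Fcer1a and Prss34 were listed at 0 in all 3 pre-HSC libraries. The 9 macrophage markers summed to 48.2 to 342 FPKM in FL-HSC and 139 to 205 in ex-HSC, against 217 to 1339 in pre-HSC, with 9, 8 and 9 of them at 1 FPKM and none at 0 throughout a population. The 9 T and NK cell markers summed to 16.5 to 24.8 FPKM in FL-HSC and 40.8 to 48.3 in ex-HSC, against 25.9 to 35.3 in pre-HSC. Of these, 3, 3 and 2 averaged 1 FPKM in those populations, Cd3d and Ncr1 were listed at 0 in FL-HSC, and Cd3e, Cd3d and Ncr1 were listed at 0 in pre-HSC. Lck and Nkg7 made up most of the sums. Lck averaged 11.7 FPKM in FL-HSC and 20.4 in ex-HSC, against 26.4 in pre-HSC. For Nkg7 the means were 6.89 and 19.8 FPKM, against 0.368 in pre-HSC. The 8 neutrophil markers summed to 482 to 587 FPKM in FL-HSC and 654 to 949.8 in ex-HSC, against 30.2 to 46.1 in pre-HSC, with 8, 8 and 4 of them at 1 FPKM. They were thus high in the populations in which Ltb, Tnfsf14, Tnfrsf13b, Tnfrsf13c and Tnfrsf18 were called higher than in pre-HSC, and their part in those values was not tested. The 7 erythroid markers summed to 182 to 347 FPKM in FL-HSC and 87.8 to 100.4 in ex-HSC, against 552 to 742 in pre-HSC, with 7, 7 and 4 of them at 1 FPKM. Ex-HSC replicate 2 stood apart, with 24992 genes above 0 FPKM against 15622 to 18374 in the other libraries.

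Promoter windows are shown for the genes on which the results turn: Tnfrsf9, the receptor with the highest mean in ex-HSC, Ltb, the leading ligand, and the ligand and receptor Tnfsf14 and Tnfrsf14. Each window runs from 250 bases before to 50 bases after a transcript start listed by RefSeq on GRCm38.p6. Capitals mark matches, on either strand, to the kappaB consensus bound by NF-kappaB, to the AP-1 motif TGANTCA or to the RUNX motif TGTGGT. RUNX1 is the factor through which endothelium gives rise to blood cells. For Tnfrsf9, 2 starts are listed, and the window of the downstream start holds all 3 kinds of match.
Tnfrsf9, upstream start, plus strand, chr4:150919905-150920204: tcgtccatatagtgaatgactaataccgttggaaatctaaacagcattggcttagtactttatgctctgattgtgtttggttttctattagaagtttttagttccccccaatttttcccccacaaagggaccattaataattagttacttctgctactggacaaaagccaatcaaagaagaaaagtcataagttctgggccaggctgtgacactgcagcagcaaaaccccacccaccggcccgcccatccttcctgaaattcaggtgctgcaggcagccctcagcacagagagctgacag
Tnfrsf9, downstream start, plus strand, chr4:150927749-150928048: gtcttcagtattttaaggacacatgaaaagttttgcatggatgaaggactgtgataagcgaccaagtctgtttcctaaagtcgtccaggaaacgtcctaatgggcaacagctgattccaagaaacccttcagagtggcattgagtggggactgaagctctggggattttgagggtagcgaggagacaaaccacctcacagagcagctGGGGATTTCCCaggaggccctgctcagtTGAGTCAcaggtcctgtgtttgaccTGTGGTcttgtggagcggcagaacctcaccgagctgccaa
Ltb, plus strand, chr17:35194257-35194556: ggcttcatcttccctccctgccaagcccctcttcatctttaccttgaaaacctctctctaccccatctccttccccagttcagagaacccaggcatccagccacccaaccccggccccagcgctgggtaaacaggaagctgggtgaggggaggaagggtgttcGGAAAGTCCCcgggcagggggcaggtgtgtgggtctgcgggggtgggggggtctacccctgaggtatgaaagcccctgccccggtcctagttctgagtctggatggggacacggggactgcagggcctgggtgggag
Tnfsf14, minus strand, chr17:57194132-57194431: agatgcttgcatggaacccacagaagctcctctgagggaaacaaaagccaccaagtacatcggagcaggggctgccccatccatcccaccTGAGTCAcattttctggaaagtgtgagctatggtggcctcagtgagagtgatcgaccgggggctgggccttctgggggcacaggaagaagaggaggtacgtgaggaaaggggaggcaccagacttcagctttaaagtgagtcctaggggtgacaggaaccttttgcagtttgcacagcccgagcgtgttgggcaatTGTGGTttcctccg
Tnfrsf14, minus strand, chr4:154928028-154928327: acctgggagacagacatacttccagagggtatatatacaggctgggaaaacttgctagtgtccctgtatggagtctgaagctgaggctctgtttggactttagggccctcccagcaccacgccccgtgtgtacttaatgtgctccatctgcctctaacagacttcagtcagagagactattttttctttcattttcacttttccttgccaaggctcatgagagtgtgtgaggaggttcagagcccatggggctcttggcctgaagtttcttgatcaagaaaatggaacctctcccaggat
The Tnfrsf9 stretches are GGGGATTTCCC for kappaB, TGAGTCA for AP-1 and TGTGGT for RUNX. The Ltb window holds the kappaB stretch GGAAAGTCCC alone, the Tnfsf14 window holds TGAGTCA and TGTGGT, and the Tnfrsf14 window holds none of the 3 motifs. Windows were found for 30 of the 39 members. A kappaB match lay in the windows of 3 of the 30 (Ltb, Tnfrsf8 and Tnfrsf9), against 5.14% of 27025 genes with a window. AP-1 matches lay in the windows of 6 members, against 8.97% of genes, and RUNX matches in those of 6 members, against 18.9% of genes. Overlapping matches to the same motif are joined in a single run of capitals, as in the Tnfrsf9 stretch GGGGATTTCCC. Matches to different motifs did not overlap in the windows shown. Such matches describe letters, and binding was not measured.

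The populations were compared pairwise in limma on the log2(FPKM + 1) scale, for genes that reached 1 FPKM in 2 libraries or more. A log2 ratio below is the difference of group means on that scale ± SE. This left 7 ligands and 18 receptors, 25 of the 39 members, and 13720 genes in all. A gene was called at a Benjamini-Hochberg adjusted p under 0.05 over all genes tested, and every adjusted p given here is from these fits. In ex-HSC against pre-HSC, 12 members rose and 7 fell, where 15.7% of all tested genes rose and 28.4% fell. Among them, 5 of the 7 ligands rose and Tnf and Tnfsf9 were not called, while 7 receptors rose and 7 fell. In FL-HSC against pre-HSC, 8 members rose and 10 fell, where 22.9% of all genes rose and 20.4% fell. These were 3 ligands that rose and 1 that fell, and 5 receptors that rose and 9 that fell. In FL-HSC against ex-HSC, 6 members were higher and 11 lower, where 24.1% of all genes were higher and 9.15% lower. Of these, 1 ligand was higher and 4 lower, and 5 receptors were higher and 7 lower. The 6 higher calls became 2 without FL-HSC replicate 2, against 10 lower, 3 in a fit of those groups alone, against 11 lower, and 2 with median-of-ratios size factors and ex-HSC replicate 2 left out, against 12 lower. In either direction 19, 18 and 17 of the 25 tested members were called in the 3 comparisons, in the order given, against 44.1%, 43.3% and 33.3% of all tested genes. The members tested had to reach 1 FPKM in 2 libraries or more, so these counts do not speak for the 14 members left out. Lta and Tnfsf11 reached 1 FPKM only in ex-HSC libraries, and Tnfrsf11a and Tnfrsf19 only in pre-HSC libraries. These genes entered the test through the group where they are high, so the direction of their calls is tied to the filter.

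**Figure D2:**
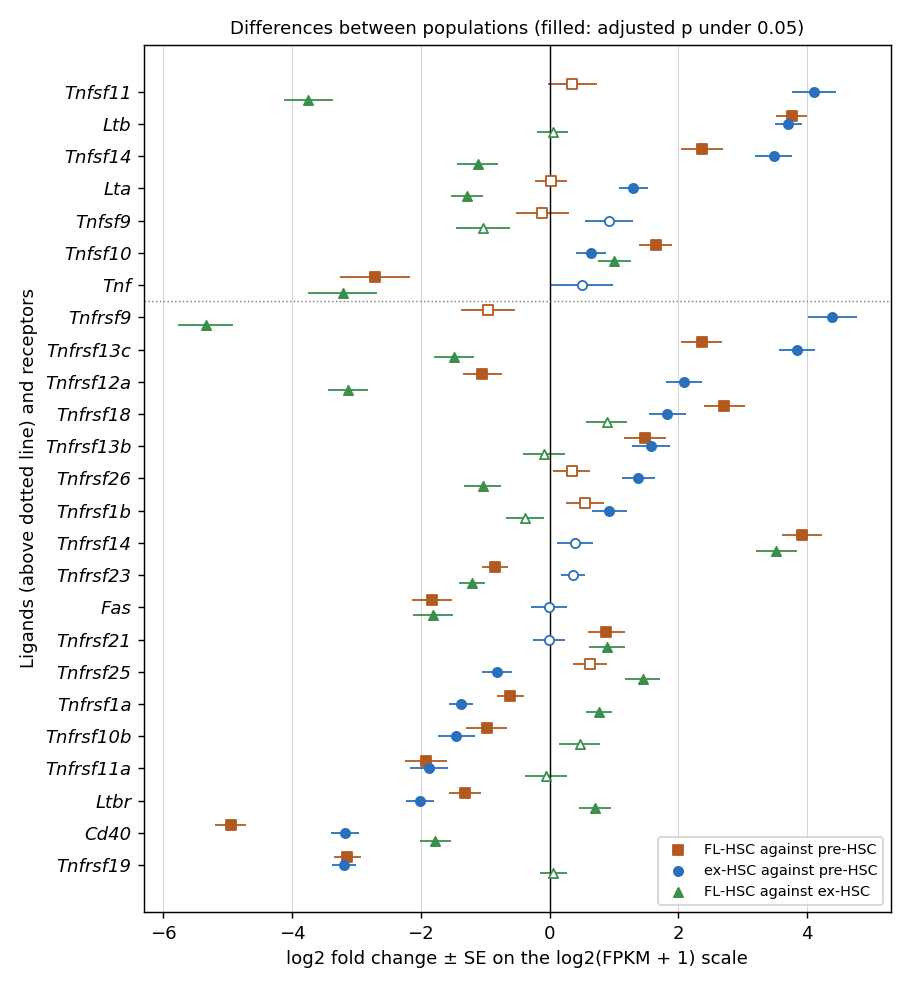
Log2 ratios (log2 fold changes on the log2(FPKM + 1) scale, points) with standard errors (bars) of the 25 tested genes in the 3 comparisons, ligands above the dotted line. Filled points passed an adjusted p under 0.05 and open points did not. Tnfrsf9 reaches 4.39 in ex-HSC against pre-HSC and -5.34 in FL-HSC against ex-HSC, while Tnfrsf14 reaches 3.92 in FL-HSC against pre-HSC.

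The median log2 ratio of the tested members was 0.65 in ex-HSC against pre-HSC, 0.02 in FL-HSC against pre-HSC and -0.38 in FL-HSC against ex-HSC. Over all tested genes it was -0.16, 0.13 and 0.27 in the same order. With median-of-ratios scaling the medians of all genes were -0.03, -0.03 and -0.03. With that scaling 47.8% of all calls in ex-HSC against pre-HSC were higher, against 35.6% as deposited. In FL-HSC against ex-HSC the share was 49.7%, against 72.5% as deposited. Among the members, quantile normalization gave 10 higher and 8 lower in FL-HSC against pre-HSC, against 8 and 10 as deposited. The comparisons of FL-HSC and of ex-HSC with pre-HSC share the pre-HSC libraries, and so are not independent of each other. In bulk RNA, fewer cells of a type and less RNA per cell cannot be told apart.

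Ltb was the most abundant ligand RNA in FL-HSC and ex-HSC. Ltb encodes lymphotoxin beta, which holds lymphotoxin alpha at the cell surface for signalling to the receptor of Ltbr. Its values were 108 and 118 FPKM in FL-HSC and 121, 81.6 and 132 FPKM in ex-HSC, against 6.23, 8.53 and 7.69 FPKM in pre-HSC. All 5 later libraries lay far above the 3 pre-HSC libraries, with no overlap. Ltb rose 14.9-fold in ex-HSC (log2 ratio 3.71 ± 0.21, adjusted p = 2.32e-07) and 15.1-fold in FL-HSC (log2 ratio 3.76 ± 0.24, adjusted p = 7.76e-07) against pre-HSC. It was not called between FL-HSC and ex-HSC (log2 ratio 0.05 ± 0.24, adjusted p = 0.891), where the values overlap and median-of-ratios scaling gave the opposite sign, -0.30. Its receptor gene Ltbr, which organizes lymphoid tissue when active, went the other way. Ltbr stood at 24.4 and 18.7 FPKM in FL-HSC and 13.9, 9.36 and 15.8 FPKM in ex-HSC, against 52.2, 53.1 and 58.6 FPKM in pre-HSC. The 3 populations did not overlap, and pre-HSC was highest. Ltbr fell in ex-HSC (log2 ratio -2.02 ± 0.22, adjusted p = 2.28e-05) and in FL-HSC (log2 ratio -1.31 ± 0.24, adjusted p = 0.00138) against pre-HSC. Its higher level in FL-HSC than in ex-HSC (log2 ratio 0.71 ± 0.24, adjusted p = 0.0447) was not called with median-of-ratios scaling or quantile normalization. It was also lost with array weights, in a fit of those groups alone, with median-of-ratios size factors and ex-HSC replicate 2 left out, and without pre-HSC replicate 1 (adjusted p = 0.0745), pre-HSC replicate 2 (adjusted p = 0.0678), pre-HSC replicate 3 (adjusted p = 0.0615), ex-HSC replicate 1 (adjusted p = 0.0596), FL-HSC replicate 1 (adjusted p = 0.252) or FL-HSC replicate 2 (adjusted p = 0.0669), the range over the 8 fits being 0.0321 to 0.252.

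Lta, which encodes lymphotoxin alpha, was low throughout. It was listed at 0 and 0.149 FPKM in FL-HSC and 2.20, 0.943 and 1.88 FPKM in ex-HSC, against 0, 0.0295 and 0.158 FPKM in pre-HSC. The ex-HSC libraries were above all others. Lta was higher in ex-HSC than in pre-HSC (log2 ratio 1.30 ± 0.22, adjusted p = 0.000679) and FL-HSC lay below ex-HSC (log2 ratio -1.29 ± 0.25, adjusted p = 0.00313). No call was made in FL-HSC against pre-HSC (log2 ratio 0.02 ± 0.25, adjusted p = 0.967), and without ex-HSC replicate 1 or ex-HSC replicate 3 Lta was under the filter and not tested.

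LIGHT, the product of Tnfsf14, binds both the receptor of Ltbr and HVEM, the product of Tnfrsf14, which also binds the inhibitory receptor BTLA. Tnfsf14 had 10.3 and 8.70 FPKM in FL-HSC and 35.6, 15.4 and 18.5 FPKM in ex-HSC, against 0.791, 1.11 and 1.22 FPKM in pre-HSC. The 3 populations did not overlap, and ex-HSC replicate 1 was highest. Tnfsf14 rose 22.3-fold in ex-HSC (log2 ratio 3.48 ± 0.29, adjusted p = 2.96e-06) and 9.15-fold in FL-HSC (log2 ratio 2.37 ± 0.32, adjusted p = 0.000182) against pre-HSC. It was below the ex-HSC level in FL-HSC (log2 ratio -1.12 ± 0.32, adjusted p = 0.0219), a call lost without FL-HSC replicate 1 (adjusted p = 0.0566) or FL-HSC replicate 2 (adjusted p = 0.103), the range over the 8 fits being 0.0148 to 0.103. Where 1 FL-HSC library is left out, the other is assumed to vary like the libraries of the other groups. Tnfrsf14 was at 85.9 and 85.4 FPKM in FL-HSC and 9.63, 3.99 and 7.05 FPKM in ex-HSC, against 5.35, 5.55 and 3.49 FPKM in pre-HSC. Both FL-HSC libraries were far above the other 6, and ex-HSC and pre-HSC overlapped. Tnfrsf14 rose 17.8-fold in FL-HSC against pre-HSC (log2 ratio 3.92 ± 0.31, adjusted p = 3.73e-06) and was 12.4-fold higher in FL-HSC than in ex-HSC (log2 ratio 3.52 ± 0.31, adjusted p = 2.88e-05). In ex-HSC against pre-HSC it was not called (log2 ratio 0.40 ± 0.28, adjusted p = 0.275), though it was with quantile normalization, with array weights and without ex-HSC replicate 2.

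**Figure D3:**
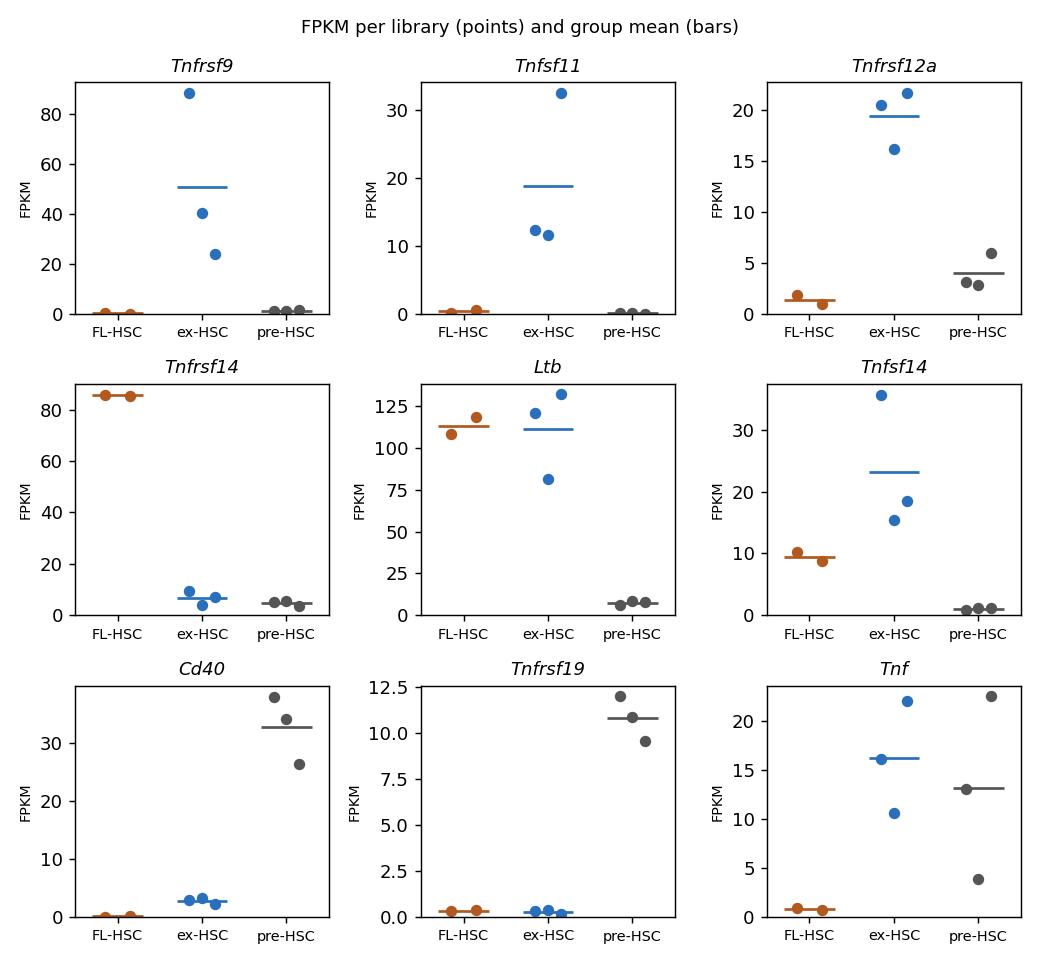
FPKM of 9 superfamily genes per library (points, replicate 1 at the left of each group) with the group mean (bars), for FL-HSC (n = 2), ex-HSC (n = 3) and pre-HSC (n = 3). The axes are linear, start at 0 and differ between panels. Tnfrsf9, Tnfsf11 and Tnfrsf12a are highest in ex-HSC, Tnfrsf14 in FL-HSC, and Cd40 and Tnfrsf19 in pre-HSC.

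Tnf, the gene of the founding cytokine, was nearly absent from fetal liver cells. It had 0.885 and 0.695 FPKM in FL-HSC and 16.1, 10.6 and 22.1 FPKM in ex-HSC, against 13.1, 3.85 and 22.5 FPKM in pre-HSC. Every FL-HSC library was below every other library, and the ex-HSC and pre-HSC ranges overlapped. Tnf fell in FL-HSC against pre-HSC (log2 ratio -2.71 ± 0.54, adjusted p = 0.00218), to 0.0601 times the pre-HSC mean (0.0934 times without pre-HSC replicate 3), and FL-HSC lay below ex-HSC (log2 ratio -3.21 ± 0.54, adjusted p = 0.00142). No call was made in ex-HSC against pre-HSC (log2 ratio 0.50 ± 0.48, adjusted p = 0.423), where the log2 ratio ran from -0.13 to 1.01 with 1 library left out. Within pre-HSC, Tnf was lowest in replicate 2 and highest in replicate 3, the same order as the macrophage markers, which summed to 641, 217 and 1339 FPKM in replicates 1, 2 and 3. In FL-HSC those markers summed to 342 and 48.2 FPKM while Tnf stayed below 1 FPKM in both. The same order over the pre-HSC libraries was found in 8 of the 25 tested members, Tnf, Tnfsf9, Fas, Tnfrsf11a, Tnfrsf12a, Tnfrsf13b, Tnfrsf1b and Tnfrsf21, and in 22.8% of all tested genes. The part of macrophages in these values was not tested.

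The TNF receptor genes went opposite ways in ex-HSC. Tnfrsf1a, whose product carries a death domain and is made by most cells, was at 54.9 and 49.2 FPKM in FL-HSC and 31.9, 24.6 and 35.1 FPKM in ex-HSC, against 75.3, 78.1 and 86.2 FPKM in pre-HSC. No populations overlapped, with pre-HSC highest and ex-HSC lowest. Tnfrsf1a fell in ex-HSC (log2 ratio -1.37 ± 0.18, adjusted p = 0.000118) and in FL-HSC (log2 ratio -0.61 ± 0.20, adjusted p = 0.0333) against pre-HSC, and was higher in FL-HSC than in ex-HSC (log2 ratio 0.76 ± 0.20, adjusted p = 0.0162). The call in FL-HSC against pre-HSC was lost without pre-HSC replicate 1 (adjusted p = 0.0738), pre-HSC replicate 2 (adjusted p = 0.0839), pre-HSC replicate 3 (adjusted p = 0.103), FL-HSC replicate 1 (adjusted p = 0.0887) or FL-HSC replicate 2 (adjusted p = 0.166), the range over the 8 fits being 0.00384 to 0.166. That in FL-HSC against ex-HSC was lost in a fit of those groups alone, with median-of-ratios size factors and ex-HSC replicate 2 left out, and without FL-HSC replicate 1 (adjusted p = 0.104) or FL-HSC replicate 2 (adjusted p = 0.0570), the range over the 8 fits being 0.00961 to 0.104. Tnfrsf1b, the receptor without a death domain that blood cells use, had 19.0 and 18.7 FPKM in FL-HSC and 27.9, 21.0 and 26.01 FPKM in ex-HSC, against 12.1, 8.28 and 19.4 FPKM in pre-HSC. Its ex-HSC libraries were the 3 highest, and pre-HSC replicate 3 lay above both FL-HSC libraries. Tnfrsf1b was higher in ex-HSC than in pre-HSC (log2 ratio 0.93 ± 0.27, adjusted p = 0.0162), but not without pre-HSC replicate 1 (adjusted p = 0.0523), pre-HSC replicate 2 (adjusted p = 0.0729) or ex-HSC replicate 1 (adjusted p = 0.0548), the range over the 8 fits being 0.00212 to 0.0729. It passed neither in FL-HSC against pre-HSC (log2 ratio 0.55 ± 0.30, adjusted p = 0.161) nor in FL-HSC against ex-HSC (log2 ratio -0.38 ± 0.30, adjusted p = 0.363). In FL-HSC against pre-HSC it was called without pre-HSC replicate 3.

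**Figure D4:**
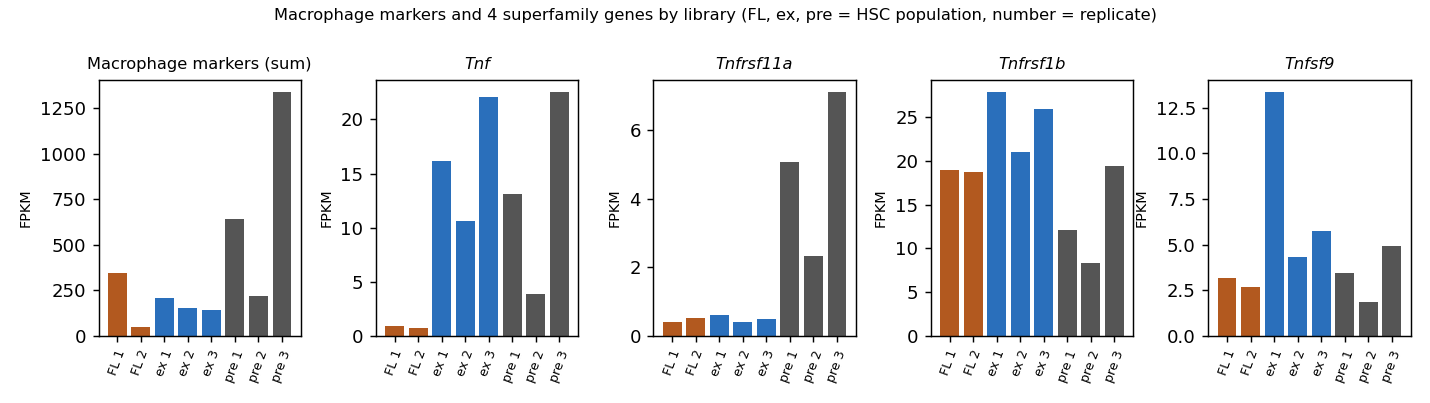
Summed FPKM of 9 macrophage markers (left) and FPKM of Tnf, Tnfrsf11a, Tnfrsf1b and Tnfsf9 in each of the 8 libraries, with axes from 0. All genes shown are among the 8 of 25 tested members that share the pre-HSC order of the markers. That order was found in 22.8% of all tested genes. In pre-HSC all 5 panels are therefore lowest in replicate 2 and highest in replicate 3. In FL-HSC replicate 1 the markers stand at 342 FPKM and Tnf at 0.885 FPKM.

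Among the costimulatory receptors, Tnfrsf9 stood out in ex-HSC. It encodes 4-1BB, an inducible receptor of activated lymphocytes and mast cells. Tnfrsf9 was listed at 0.237 and 0 FPKM in FL-HSC and 88.1, 40.2 and 24.01 FPKM in ex-HSC, against 0.904, 1.16 and 1.44 FPKM in pre-HSC. The ex-HSC libraries were far above all others, with replicate 1 highest. Tnfrsf9 rose 43.5-fold in ex-HSC against pre-HSC (log2 ratio 4.39 ± 0.38, adjusted p = 4.51e-06) and FL-HSC lay below ex-HSC (log2 ratio -5.34 ± 0.43, adjusted p = 1.43e-05). The fold in ex-HSC was 27.5 without ex-HSC replicate 1. No call was made in FL-HSC against pre-HSC (log2 ratio -0.96 ± 0.43, adjusted p = 0.0921), although it was called with a pseudocount of 0.5 or 0.1, in a fit of those groups alone, and without ex-HSC replicate 1 or replicate 3. Within ex-HSC its order over replicates 1, 2 and 3 was that of the mast cell and basophil markers, at 3483, 1715 and 1712 FPKM in sum. Replicates 2 and 3 nearly tie in that sum. Of the markers, Cma1, Ms4a2 and Prss34 were higher in replicate 3 than in replicate 2, and the others were lower. The order of the sum was shared by 3 of the 25 tested members (Tnfsf10, Fas and Tnfrsf9) and 8.69% of all tested genes. The part of mast cells was not tested. The ligand gene Tnfsf9 had 3.14 and 2.69 FPKM in FL-HSC and 13.4, 4.30 and 5.76 FPKM in ex-HSC, against 3.44, 1.87 and 4.94 FPKM in pre-HSC. Ex-HSC replicate 1 was highest, and both FL-HSC libraries lay within the pre-HSC range. It was not called in ex-HSC against pre-HSC (log2 ratio 0.92 ± 0.37, adjusted p = 0.0661), in FL-HSC against pre-HSC (log2 ratio -0.11 ± 0.41, adjusted p = 0.848) or in FL-HSC against ex-HSC (log2 ratio -1.03 ± 0.41, adjusted p = 0.0785). Median-of-ratios scaling and quantile normalization each called Tnfsf9 higher in ex-HSC than in pre-HSC and lower in FL-HSC against ex-HSC. In ex-HSC against pre-HSC it was also called with array weights and without pre-HSC replicate 3 or ex-HSC replicate 2. In the annotation 14.9% of its exonic bases overlap a gene on the other strand. How strand was handled is not stated, so its values may include reads of that gene.

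Tnfrsf18, which encodes GITR, a receptor of T cells, had 7.32 and 13.0 FPKM in FL-HSC and 6.74, 3.67 and 4.496 FPKM in ex-HSC, against 0.413, 1.13 and 0.474 FPKM in pre-HSC. All 5 later libraries lay above the 3 pre-HSC libraries. Tnfrsf18 rose in ex-HSC (log2 ratio 1.83 ± 0.28, adjusted p = 0.000346) and in FL-HSC (log2 ratio 2.72 ± 0.32, adjusted p = 6.03e-05) against pre-HSC, and was not called between FL-HSC and ex-HSC (log2 ratio 0.89 ± 0.32, adjusted p = 0.0519). That last comparison was called without pre-HSC replicate 2, ex-HSC replicate 1 or FL-HSC replicate 1, without the intensity trend in limma, with a filter of 5 FPKM and with isolated zeros as missing. An antisense gene overlaps 27.2% of the Tnfrsf18 exonic bases, so its values may include reads of that gene. Its neighbour Tnfrsf4, the gene of OX40, ranged from 0.449 to 1.44 FPKM over the 8 libraries and was not tested.

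Cd40 encodes a receptor of B cells, dendritic cells and endothelium through which helper T cells act. Its values were 0 and 0.182 FPKM in FL-HSC and 2.84, 3.18 and 2.21 FPKM in ex-HSC, against 38.1, 34.2 and 26.5 FPKM in pre-HSC. The populations did not overlap, and FL-HSC was lowest. Cd40 fell in ex-HSC (log2 ratio -3.17 ± 0.21, adjusted p = 7.16e-07), to 0.0834 times the pre-HSC mean, and in FL-HSC (log2 ratio -4.95 ± 0.24, adjusted p = 1.49e-07). It was below the ex-HSC level in FL-HSC (log2 ratio -1.78 ± 0.24, adjusted p = 0.000409), and these 3 calls held with each library left out in turn. Endothelial markers were also highest in pre-HSC, and their part in the Cd40 values was not tested. Cd27, which the rule does not take in, is the receptor for the product of Cd70 and marks early progenitors. It had 49.5 and 66.0 FPKM in FL-HSC and 34.8, 20.7 and 30.8 FPKM in ex-HSC, against 4.46, 7.14 and 10.95 FPKM in pre-HSC. Cd27 rose in ex-HSC (log2 ratio 1.85 ± 0.30, adjusted p = 0.000481) and in FL-HSC (log2 ratio 2.84 ± 0.33, adjusted p = 6.41e-05) against pre-HSC, and was higher in FL-HSC than in ex-HSC (log2 ratio 1.00 ± 0.33, adjusted p = 0.0406). Cd70 itself reached at most 0.197 FPKM.

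RANKL, the ligand encoded by Tnfsf11, drives osteoclast formation through RANK, the product of Tnfrsf11a, and is held back by the soluble decoy receptor encoded by Tnfrsf11b. Tnfsf11 was listed at 0.113 and 0.574 FPKM in FL-HSC and 12.3, 11.6 and 32.4 FPKM in ex-HSC, against 0.0534, 0.0509 and 0 FPKM in pre-HSC. It stood above 10 FPKM in each ex-HSC library, highest in replicate 3, and below 1 FPKM elsewhere. Tnfsf11 was higher in ex-HSC than in pre-HSC (log2 ratio 4.10 ± 0.34, adjusted p = 3.34e-06) and FL-HSC lay below ex-HSC (log2 ratio -3.75 ± 0.38, adjusted p = 6.85e-05). No call was made in FL-HSC against pre-HSC (log2 ratio 0.36 ± 0.38, adjusted p = 0.478). Tnfrsf11a had 0.386 and 0.504 FPKM in FL-HSC and 0.616, 0.404 and 0.482 FPKM in ex-HSC, against 5.06, 2.33 and 7.12 FPKM in pre-HSC. Pre-HSC was highest without overlap, while FL-HSC and ex-HSC overlapped. Tnfrsf11a fell in ex-HSC (log2 ratio -1.87 ± 0.29, adjusted p = 0.000380) and in FL-HSC (log2 ratio -1.92 ± 0.33, adjusted p = 0.000826) against pre-HSC, and was not called between FL-HSC and ex-HSC (log2 ratio -0.05 ± 0.33, adjusted p = 0.919). Its pre-HSC values followed the macrophage markers in order, lowest in replicate 2 and highest in replicate 3. The decoy gene Tnfrsf11b was below 1 FPKM in every library and listed at 0 in both of FL-HSC. In no population did the RANKL and RANK genes both reach a mean of 1 FPKM.

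Tnfrsf13b encodes TACI and Tnfrsf13c the BAFF receptor, both of which take part in B cell survival. Both genes rose in FL-HSC and ex-HSC, while their ligand genes stayed below 1 FPKM. Tnfrsf13b stood at 24.1 and 31.7 FPKM in FL-HSC and 35.5, 19.9 and 35.9 FPKM in ex-HSC, against 7.95, 7.12 and 13.7 FPKM in pre-HSC. FL-HSC and ex-HSC overlapped, and both lay above pre-HSC. Tnfrsf13b rose in ex-HSC (log2 ratio 1.57 ± 0.29, adjusted p = 0.00121) and in FL-HSC (log2 ratio 1.49 ± 0.33, adjusted p = 0.00397), and was not called between FL-HSC and ex-HSC (log2 ratio -0.09 ± 0.33, adjusted p = 0.857). Tnfrsf13c had 4.16 and 8.34 FPKM in FL-HSC and 19.8, 21.1 and 14.9 FPKM in ex-HSC, against 0.0366, 0.369 and 0.737 FPKM in pre-HSC. The populations did not overlap, with ex-HSC highest and pre-HSC lowest. Tnfrsf13c rose 48.9-fold in ex-HSC (log2 ratio 3.84 ± 0.28, adjusted p = 1.26e-06) and 16.4-fold in FL-HSC (log2 ratio 2.36 ± 0.32, adjusted p = 0.000166) against pre-HSC. The pre-HSC mean is low, and without pre-HSC replicate 3 the folds were 91.7 in ex-HSC and 30.8 in FL-HSC, while without FL-HSC replicate 2 that in FL-HSC was 10.9. It was below the ex-HSC level in FL-HSC (log2 ratio -1.48 ± 0.32, adjusted p = 0.00536), a call lost with a pseudocount of 0.1 and without FL-HSC replicate 1 (adjusted p = 0.0529), the range over the 8 fits being 0.00402 to 0.0529. Tnfrsf17, which encodes the receptor BCMA, was not tested and exceeded 1 FPKM in pre-HSC replicate 3 alone. The BAFF gene Tnfsf13b reached at most 0.296 FPKM and the APRIL gene Tnfsf13 at most 0.563 FPKM. For Tnfsf13, 60.0% of exonic bases overlap other annotated genes. Of 7 B cell markers, 1 averaged 1 FPKM or more in each population.

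Tnfrsf12a encodes Fn14, the TWEAK receptor, which is induced by growth factors in many tissues. It had 1.79 and 0.921 FPKM in FL-HSC and 20.5, 16.2 and 21.7 FPKM in ex-HSC, against 3.07, 2.80 and 6.00 FPKM in pre-HSC. The populations did not overlap, and ex-HSC was highest. Tnfrsf12a rose 4.91-fold in ex-HSC (log2 ratio 2.09 ± 0.27, adjusted p = 0.000104) and fell in FL-HSC (log2 ratio -1.04 ± 0.31, adjusted p = 0.0182) against pre-HSC. It was below the ex-HSC level in FL-HSC (log2 ratio -3.13 ± 0.31, adjusted p = 5.10e-05). The fall against pre-HSC was lost with quantile normalization, in a fit of those groups alone and without pre-HSC replicate 3 (adjusted p = 0.0598) or FL-HSC replicate 2 (adjusted p = 0.126), the range over the 8 fits being 0.0151 to 0.126. The gene of its ligand, Tnfsf12, was not analysed here.

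Fas, which triggers apoptosis when bound by Fas ligand, had 0.433 and 0.496 FPKM in FL-HSC and 6.41, 4.34 and 2.44 FPKM in ex-HSC, against 4.19, 3.39 and 5.07 FPKM in pre-HSC. Ex-HSC and pre-HSC overlapped, and both FL-HSC libraries lay below 0.5 FPKM. Fas fell in FL-HSC against pre-HSC (log2 ratio -1.82 ± 0.31, adjusted p = 0.000837) and FL-HSC lay below ex-HSC (log2 ratio -1.81 ± 0.31, adjusted p = 0.00163), while ex-HSC against pre-HSC was not called (log2 ratio -0.01 ± 0.28, adjusted p = 0.987). The ligand gene Fasl reached at most 0.593 FPKM, in ex-HSC replicate 2, and was listed at 0 in all FL-HSC and pre-HSC libraries.

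TRAIL, the product of Tnfsf10, acts in the mouse through the death receptor encoded by Tnfrsf10b. Tnfsf10 had 2.32 and 4.16 FPKM in FL-HSC and 1.35, 0.985 and 0.886 FPKM in ex-HSC, against 0.134, 0.286 and 0.576 FPKM in pre-HSC. The order FL-HSC, ex-HSC, pre-HSC held without overlap, at low levels. Tnfsf10 rose in FL-HSC (log2 ratio 1.65 ± 0.26, adjusted p = 0.000472) and in ex-HSC (log2 ratio 0.65 ± 0.23, adjusted p = 0.0416) against pre-HSC, and was higher in FL-HSC than in ex-HSC (log2 ratio 1.00 ± 0.26, adjusted p = 0.0133). The rise in ex-HSC was lost with median-of-ratios size factors and ex-HSC replicate 2 left out and without pre-HSC replicate 1 (adjusted p = 0.137), pre-HSC replicate 2 (adjusted p = 0.0869), ex-HSC replicate 1 (adjusted p = 0.121), ex-HSC replicate 2 (adjusted p = 0.0689) or ex-HSC replicate 3 (adjusted p = 0.0628), the range over the 8 fits being 0.0276 to 0.137. The difference between FL-HSC and ex-HSC was lost with a pseudocount of 0.1, with median-of-ratios size factors and ex-HSC replicate 2 left out, and without FL-HSC replicate 2 (adjusted p = 0.132), the range over the 8 fits being 0.0105 to 0.132. Tnfrsf10b was at 3.74 and 3.70 FPKM in FL-HSC and 3.07, 1.18 and 3.48 FPKM in ex-HSC, against 6.50, 9.34 and 9.37 FPKM in pre-HSC. Pre-HSC was highest without overlap. Tnfrsf10b fell in ex-HSC (log2 ratio -1.45 ± 0.28, adjusted p = 0.00174) and in FL-HSC (log2 ratio -0.98 ± 0.32, adjusted p = 0.0284) against pre-HSC, and was not called between FL-HSC and ex-HSC (log2 ratio 0.47 ± 0.32, adjusted p = 0.284). The fall in FL-HSC was lost with quantile normalization, with a pseudocount of 0.1 and without pre-HSC replicate 2 (adjusted p = 0.0703), pre-HSC replicate 3 (adjusted p = 0.0696), FL-HSC replicate 1 (adjusted p = 0.0926) or FL-HSC replicate 2 (adjusted p = 0.0857), the range over the 8 fits being 0.00539 to 0.0926.

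Tnfrsf21 and Tnfrsf25 encode the death domain receptors DR6 and DR3. Tnfrsf21 had 25.3 and 26.6 FPKM in FL-HSC and 17.4, 8.74 and 15.9 FPKM in ex-HSC, against 13.6, 11.6 and 15.9 FPKM in pre-HSC. FL-HSC was highest, and the other populations overlapped. Tnfrsf21 rose in FL-HSC against pre-HSC (log2 ratio 0.88 ± 0.28, adjusted p = 0.0269) and was higher in FL-HSC than in ex-HSC (log2 ratio 0.89 ± 0.28, adjusted p = 0.0328), while ex-HSC against pre-HSC was not called (log2 ratio -0.01 ± 0.25, adjusted p = 0.976). The first call was lost without pre-HSC replicate 1 (adjusted p = 0.0675), pre-HSC replicate 2 (adjusted p = 0.0818), FL-HSC replicate 1 (adjusted p = 0.0864) or FL-HSC replicate 2 (adjusted p = 0.0986), the range over the 8 fits being 0.00271 to 0.0986. The second was lost in a fit of those groups alone, with median-of-ratios size factors and ex-HSC replicate 2 left out, and without pre-HSC replicate 1 (adjusted p = 0.0518), FL-HSC replicate 1 (adjusted p = 0.0990) or FL-HSC replicate 2 (adjusted p = 0.124), the range over the 8 fits being 0.0220 to 0.124. Tnfrsf25 stood at 10.5 and 11.5 FPKM in FL-HSC and 4.37, 2.14 and 4.09 FPKM in ex-HSC, against 5.94, 7.06 and 7.33 FPKM in pre-HSC. The populations did not overlap, with FL-HSC highest and ex-HSC lowest. Tnfrsf25 was higher in FL-HSC than in ex-HSC (log2 ratio 1.44 ± 0.27, adjusted p = 0.00246) and fell in ex-HSC against pre-HSC (log2 ratio -0.81 ± 0.24, adjusted p = 0.0172). The fall was lost with quantile normalization and without pre-HSC replicate 2 (adjusted p = 0.0554) or pre-HSC replicate 3 (adjusted p = 0.0556), the range over the 8 fits being 0.0145 to 0.0556. In FL-HSC against pre-HSC it was not called (log2 ratio 0.63 ± 0.27, adjusted p = 0.0772), but was called with quantile normalization, with array weights, in a fit of those groups alone and without ex-HSC replicate 2. Its ligand gene Tnfsf15 reached at most 0.0923 FPKM.

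A mouse cluster on chromosome 7 holds Tnfrsf26, Tnfrsf22 and Tnfrsf23, close copies whose values are uncertain, since reads that match more than one of them may have been counted for either. Tnfrsf22 and Tnfrsf23 encode decoy receptors for TRAIL in the mouse. Tnfrsf23 had 0.125 and 0.0817 FPKM in FL-HSC and 1.83, 1.32 and 1.53 FPKM in ex-HSC, against 0.946, 1.09 and 0.916 FPKM in pre-HSC. The populations did not overlap, and FL-HSC was lowest. Tnfrsf23 fell in FL-HSC against pre-HSC (log2 ratio -0.85 ± 0.20, adjusted p = 0.00634) and FL-HSC lay below ex-HSC (log2 ratio -1.21 ± 0.20, adjusted p = 0.00140). In ex-HSC against pre-HSC it was not called (log2 ratio 0.36 ± 0.18, adjusted p = 0.128), but was called with median-of-ratios scaling, quantile normalization or array weights. Tnfrsf26 had 1.25 and 2.54 FPKM in FL-HSC and 5.29, 3.30 and 6.18 FPKM in ex-HSC, against 0.956, 1.36 and 1.39 FPKM in pre-HSC. Ex-HSC was highest, and FL-HSC overlapped pre-HSC. Tnfrsf26 was higher in ex-HSC than in pre-HSC (log2 ratio 1.38 ± 0.26, adjusted p = 0.00126) and FL-HSC lay below ex-HSC (log2 ratio -1.04 ± 0.29, adjusted p = 0.0189), a call lost without ex-HSC replicate 3 (adjusted p = 0.0569) or FL-HSC replicate 1 (adjusted p = 0.152), the range over the 8 fits being 0.0112 to 0.152. In FL-HSC against pre-HSC Tnfrsf26 was not called (log2 ratio 0.34 ± 0.29, adjusted p = 0.360), but was with quantile normalization. Tnfrsf22 stayed between 0.0646 and 0.438 FPKM.

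Tnfrsf19, which encodes TROY, a receptor of embryonic epithelia and the nervous system, was a gene of pre-HSC libraries. It had 0.320 and 0.347 FPKM in FL-HSC and 0.296, 0.384 and 0.181 FPKM in ex-HSC, against 11.98, 10.8 and 9.54 FPKM in pre-HSC. Pre-HSC lay at 9.54 FPKM or more and the other libraries below 0.4 FPKM. Tnfrsf19 fell in ex-HSC (log2 ratio -3.19 ± 0.19, adjusted p = 2.62e-07) and in FL-HSC (log2 ratio -3.14 ± 0.21, adjusted p = 1.16e-06) against pre-HSC, and was not called between FL-HSC and ex-HSC (log2 ratio 0.05 ± 0.21, adjusted p = 0.866). Summed over their lists, stromal and endothelial markers were highest in the same libraries. Their part in the Tnfrsf19 values was not tested.

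The 14 members that did not reach the filter were 9 ligands and 5 receptors. The ligands were Cd40lg, Cd70, Fasl, Tnfsf13, Tnfsf13b, Tnfsf15, Tnfsf18, Tnfsf4 and Tnfsf8, with a highest value of 0.636 FPKM, that of Tnfsf8 in ex-HSC replicate 3. The receptors were Tnfrsf11b, Tnfrsf17, Tnfrsf22, Tnfrsf4 and Tnfrsf8, with a highest value of 1.44 FPKM, that of Tnfrsf4 in ex-HSC replicate 3. With no filter, 5 of the 14 were called in some comparison, a count over the 3 comparisons together. The share of all genes was taken for single comparisons only, so it does not match that count. It was 21.8% in ex-HSC against pre-HSC, 20.8% in FL-HSC against pre-HSC and 13.4% in FL-HSC against ex-HSC. Fasl, Tnfsf4 and Tnfsf8 were higher and Tnfsf13 lower in ex-HSC against pre-HSC. Tnfsf13 and Tnfrsf11b were lower in FL-HSC against pre-HSC, and Fasl and Tnfsf8 were below the ex-HSC level in FL-HSC.

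Of 24 ligand and receptor pairs written down, 23 had both genes in the table. Both genes of a pair had a mean of at least 1 FPKM for 4 pairs in FL-HSC and 9 pairs in ex-HSC, against 6 pairs in pre-HSC. Ltb with Ltbr, Tnfsf14 with Ltbr and Tnfsf14 with Tnfrsf14 reached that level in each population. Lta, whose product is held at the surface by that of Ltb, averaged 0.0746 FPKM in FL-HSC and 0.0623 in pre-HSC. Tnfsf14 was near the cutoff in pre-HSC, at a mean of 1.04 FPKM with replicate 1 at 0.791. Tnfsf9 with Tnfrsf9 reached the level in ex-HSC and pre-HSC, as did Tnf with Tnfrsf1a or Tnfrsf1b. Lta with either TNF receptor reached it in ex-HSC, and Tnfsf10 with Tnfrsf10b in FL-HSC and ex-HSC. Tnfrsf18, Cd40, Fas, Tnfrsf25 and Tnfrsf13b and Tnfrsf13c had no ligand gene at 1 FPKM in any population. Ligands can come from other cells, which these libraries do not show.

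In the annotation 18 members form 7 runs of adjacent genes. On chromosome 17, Ltb, Tnf and Lta are adjacent. In FL-HSC, Ltb was at 113 ± 7.07 FPKM (SD, n = 2) while neither Tnf nor Lta reached 1 FPKM in either library. In ex-HSC, Ltb averaged 112 ± 26.5 and Tnf 16.3 ± 5.76 FPKM (SD, n = 3), and Lta lay between 0.943 and 2.20 FPKM. In pre-HSC, Tnf averaged 13.2 ± 9.35 and Ltb 7.48 ± 1.16 FPKM (SD, n = 3), and Lta did not exceed 0.158 FPKM. Also on chromosome 17, Tnfsf14 rose beside Cd70, which stayed near 0. Tnfrsf1b stood next to Tnfrsf8 on chromosome 4, and Tnfrsf8 stayed at or below 0.285 FPKM.

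Genes that act downstream of the receptors were counted in lists, to be read beside the 44.1% of all tested genes called in ex-HSC against pre-HSC, 43.3% in FL-HSC against pre-HSC and 33.3% in FL-HSC against ex-HSC. Of 18 adaptor and ubiquitin genes tested, 8 rose and 2 fell in ex-HSC against pre-HSC, 5 rose and 2 fell in FL-HSC against pre-HSC, and 2 were higher and 4 lower in FL-HSC against ex-HSC. Their median log2 ratios, in the same order of comparisons, were 0.31, 0.22 and -0.13. Traf1, an adaptor that NF-kappaB induces, had 0.875 and 2.28 FPKM in FL-HSC and 21.5, 17.8 and 11.04 FPKM in ex-HSC, against 1.13, 1.38 and 1.35 FPKM in pre-HSC. Its ex-HSC libraries were far above the rest. It rose in ex-HSC (log2 ratio 2.91 ± 0.28, adjusted p = 1.07e-05) and FL-HSC lay below ex-HSC (log2 ratio -2.79 ± 0.32, adjusted p = 0.000133). Tnfaip3, which encodes the brake A20, had 1.60 and 1.58 FPKM in FL-HSC and 46.6, 20.7 and 41.1 FPKM in ex-HSC, against 11.7, 7.44 and 22.0 FPKM in pre-HSC. FL-HSC was lowest, and ex-HSC replicate 2 lay below pre-HSC replicate 3. It rose in ex-HSC (log2 ratio 1.38 ± 0.38, adjusted p = 0.0123) and fell in FL-HSC (log2 ratio -2.38 ± 0.42, adjusted p = 0.00105) against pre-HSC. Birc3, a ubiquitin ligase of receptor complexes, rose in ex-HSC (log2 ratio 1.80 ± 0.20, adjusted p = 3.29e-05), as did Cyld, a deubiquitinase that limits signalling (log2 ratio 1.46 ± 0.19, adjusted p = 9.40e-05). In FL-HSC, Rbck1 rose (log2 ratio 1.22 ± 0.24, adjusted p = 0.00208) and Traf4 fell (log2 ratio -1.27 ± 0.25, adjusted p = 0.00196) against pre-HSC.

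Of 17 kinase and NF-kappaB genes, 9 rose and 8 were not called in ex-HSC against pre-HSC. In FL-HSC 3 rose and 3 fell against pre-HSC, and 2 were higher and 7 lower than in ex-HSC. The medians were 0.77, 0.21 and -0.50, and the shares of all genes called were 44.1%, 43.3% and 33.3%. Nfkbia, the inhibitor that NF-kappaB itself induces, had 12.5 and 13.2 FPKM in FL-HSC and 147, 118 and 152 FPKM in ex-HSC, against 50.4, 48.2 and 90.7 FPKM in pre-HSC. FL-HSC was lowest and ex-HSC highest, without overlap. Nfkbia fell in FL-HSC against pre-HSC (log2 ratio -2.15 ± 0.27, adjusted p = 0.000114) and FL-HSC lay below ex-HSC (log2 ratio -3.33 ± 0.27, adjusted p = 1.64e-05). Relb, a subunit of the pathway downstream of Ltbr and Cd40, had 3.22 and 3.63 FPKM in FL-HSC and 36.3, 34.4 and 24.9 FPKM in ex-HSC, against 8.53, 7.95 and 13.6 FPKM in pre-HSC. It rose in ex-HSC (log2 ratio 1.59 ± 0.24, adjusted p = 0.000279) and fell in FL-HSC (log2 ratio -1.28 ± 0.27, adjusted p = 0.00292) against pre-HSC. Nfkbie (log2 ratio 1.86 ± 0.20, adjusted p = 1.97e-05), Rel (log2 ratio 1.60 ± 0.30, adjusted p = 0.00128) and Bcl3 (log2 ratio 1.30 ± 0.25, adjusted p = 0.00145) also rose in ex-HSC. Over the pre-HSC libraries, Tnfaip3, Nfkbia, Relb, Nfkbie, Rel and Bcl3 had the order of the macrophage markers. Traf1, Birc3, Cyld, Rbck1 and Traf4 did not. That order was found in 22.8% of all tested genes, and the part of macrophages in these values was not tested.

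Of 9 death effector genes, 2 rose and 2 fell in ex-HSC against pre-HSC, 4 rose and 1 fell in FL-HSC against pre-HSC, and 2 were higher and 7 not called in FL-HSC against ex-HSC. The median log2 ratios were 0.26, 0.65 and 0.24, and the same shares of all genes (44.1%, 43.3% and 33.3%) apply. Mlkl, the executor of necroptosis, had 13.8 and 15.2 FPKM in FL-HSC and 8.84, 6.55 and 11.2 FPKM in ex-HSC, against 1.98, 1.91 and 2.65 FPKM in pre-HSC, and rose in FL-HSC (log2 ratio 2.29 ± 0.25, adjusted p = 3.94e-05) and in ex-HSC (log2 ratio 1.61 ± 0.22, adjusted p = 0.000164). Xiap, which blocks caspases, fell in FL-HSC (log2 ratio -1.22 ± 0.24, adjusted p = 0.00229) and in ex-HSC (log2 ratio -1.21 ± 0.22, adjusted p = 0.00101). Among 4 shedding genes, whose products release Tnf and other ligands from the membrane, 3 fell in ex-HSC and 2 in FL-HSC against pre-HSC, the others not being called (median log2 ratios -0.97 and -0.60), and 2 were higher in FL-HSC than in ex-HSC (median 0.47). Rhbdf1, which encodes an iRhom that supports the sheddase of Adam17, had 2.92 and 4.46 FPKM in FL-HSC and 1.15, 0.598 and 1.53 FPKM in ex-HSC, against 28.5, 31.9 and 33.8 FPKM in pre-HSC and the largest fall of the list in ex-HSC (log2 ratio -3.98 ± 0.23, adjusted p = 2.48e-07). Of the 6 superfamily genes with other names, 4 were tested. Relt rose in ex-HSC (log2 ratio 0.99 ± 0.25, adjusted p = 0.00813) and in FL-HSC (log2 ratio 1.59 ± 0.28, adjusted p = 0.00106), and Ngfr fell in both (log2 ratio -1.39 ± 0.23, adjusted p = 0.000577 in ex-HSC and log2 ratio -1.54 ± 0.26, adjusted p = 0.000734 in FL-HSC). Eda2r fell in ex-HSC (log2 ratio -0.57 ± 0.19, adjusted p = 0.0357), and it was not called in FL-HSC against pre-HSC (log2 ratio -0.07 ± 0.22, adjusted p = 0.819). Eda and Edar did not reach 1 FPKM in any library.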

How the data were processed

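Poly(A) RNA from 8 libraries was sequenced in paired-end mode. The authors deposited 1 table of FPKM per gene and library, per the file headers. Build mm9 and the tools DESeq, edgeR, featureCounts and Cufflinks are named, without roles, per the submitters' processing notes. Which tool made the FPKM is not stated, and neither read depth nor strand handling is given in the sources used here. Of 33531 rows, 27 bear dates for symbols and were left out.

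Values were taken as log2(FPKM + 1), a scale on which fold changes of low genes are understated. Genes that reached 1 FPKM in 2 libraries or more were fitted in limma 3.58.1 (R 4.3.3) with a mean per group over all 8 libraries, an intensity trend and Benjamini-Hochberg adjustment. Log2 ratios are given ± SE. The fit was tested on simulated data. Folds without a log are ratios of mean FPKM and are left out where a library of either group is at 0, since an FPKM of 0 can be a failed estimate. Positions and overlaps came from GENCODE M21 (GRCm38), a later build than that of the files, so coordinates of genes are not given. Promoter sequences are from RefSeq.

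Members and lists were chosen with earlier results of these data known. Every member is described: those called or at a mean of 1 FPKM with each library's value, the others by range. Of each signalling list, up to 4 called genes per comparison with the largest changes could be named. Alternatives were quantile normalization, median-of-ratios scaling (also without ex-HSC replicate 2), a filter at 5 FPKM or none, pseudocounts of 0.1 and 0.5, limma without the trend, array weights, a replicate block, fits of 2 groups, isolated zeros as missing, and each library left out.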

Additional observations from a re-analysis of the deposited data

How the results depend on the processing

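Over the alternatives, between 16 and 22 members were called in ex-HSC against pre-HSC, between 14 and 19 in FL-HSC against pre-HSC, and between 12 and 18 in FL-HSC against ex-HSC, each total within 1.5 times the 19, 18 and 17 reported. By direction, the 6 higher calls in FL-HSC against ex-HSC ranged from 2 to 7, with 2 without FL-HSC replicate 2 or with median-of-ratios size factors and ex-HSC replicate 2 left out. Of 891 log2 ratios of single members under settings other than leaving out 1 library alone, 820 kept direction and call, 30 lost the call, 24 gained it and 17 turned sign. With 1 library left out, 525 of 594 kept both, 42 lost the call, 10 gained it and 17 turned sign. The sign turned only where the reported value was not called, as follows.

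Median-of-ratios scaling is written as scaling here. In ex-HSC against pre-HSC, Tnfrsf21 was 0.14 with scaling, 0.28 with quantile normalization, 0.25 with array weights and 0.28 with scaling but without ex-HSC replicate 2. Fas was 0.13 with scaling and 0.46 with quantile normalization. In FL-HSC against pre-HSC, Tnfsf9 was 0.15 with quantile normalization. In FL-HSC against ex-HSC, Ltb was -0.30 with scaling, -0.14 with quantile normalization, -0.14 with array weights and -0.36 with scaling but without ex-HSC replicate 2. Tnfrsf19 was -0.042 with scaling, Tnfrsf11a 0.061 with quantile normalization, and Tnfrsf10b -0.012 with scaling but without ex-HSC replicate 2. With 1 library left out, ex-HSC against pre-HSC ran from -0.13 to 1.01 for Tnf, -0.19 to 0.27 for Tnfrsf21 and -0.27 to 0.28 for Fas. FL-HSC against pre-HSC ran from -0.084 to 0.12 for Lta and -0.39 to 0.13 for Tnfsf9. FL-HSC against ex-HSC ran from -0.36 to 0.10 for Tnfrsf13b, -0.11 to 0.0058 for Tnfrsf11a, -0.0059 to 0.11 for Tnfrsf19 and -0.16 to 0.19 for Ltb. With no filter on low values, more genes are tested and the spread is estimated anew. Calls were then lost in ex-HSC against pre-HSC for Tnfsf10 and Tnfrsf1b, and in FL-HSC against pre-HSC for Tnfrsf10b, Tnfrsf12a and Tnfrsf21. In FL-HSC against ex-HSC they were lost for Tnfsf14, Ltbr, Tnfrsf21 and Tnfrsf26. The causes of these and the other changes were not tested.

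With a replicate block, 19, 16 and 17 members were called, the calls of Tnfsf10 in ex-HSC against pre-HSC and of Tnfrsf10b and Tnfrsf1a in FL-HSC against pre-HSC being lost, and in FL-HSC against ex-HSC Tnfrsf13b was 0.11, Tnfrsf11a 0.085 and Tnfrsf19 -0.015. Same-numbered libraries of different groups had r between -0.114 and 0.144 over 7 pairs, across genes, against -0.229 to 0.229 over 14 other pairs. The deviations were taken from group means of 2 or 3 libraries, so these values cannot exclude a pairing. None of the 100 isolated zeros lay in a member, but with these as missing Tnfrsf18 in FL-HSC against ex-HSC was called, for 18 members in all. Read depth is unknown, so values near 0 FPKM cannot be told from absence, and FL-HSC has 2 libraries.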
